A study of Mus musculus with 12 samples.

Results

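The integrated stress response and the unfolded protein response were followed through 44 genes, chosen by symbol from the 31017 symbols of a gene count table. An ATF4 branch held 22 genes of the transcription factor ATF4, its targets and amino acid supply, and an ER chaperone branch held 22 genes of the chaperones, sensors and degradation machinery of the endoplasmic reticulum (ER). All 44 had a row in the table, and 42 passed the filter on low counts and were tested. These were 20 members of the ATF4 branch, all but Aldh1l2 and Vldlr, and all 22 of the ER chaperone branch.

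The RNA came from 4T1 cells, a mouse mammary carcinoma line, embedded in collagen I gels as 3D cultures. Every group had been nucleofected with Cas9, together with a control guide RNA (control) or a guide RNA against ETV4 (Etv4_KO), and ended in medium with 2% serum. The 4 groups of 3 libraries were control, Etv4_KO, control with FGF and Etv4_KO with FGF, where FGF stands for 40 ng/ml of FGF2 plus 25 ng/ml of FGF10. The FGF cultures spent their first day in 10% serum with the growth factors and then 4 days in 2% serum with them, and the labels do not say whether the other groups had the same first day. The collagen concentration, either 2.4 or 1.2 mg/ml, is not given per library, and collagenase released the cells before RNA was extracted. The names of all Etv4_KO libraries share a further tag that the labels do not explain, and whether they derive from 1 clone or from many is not stated. If from 1, clone and genotype cannot be told apart.

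The integrated stress response begins with kinases that phosphorylate the translation factor eIF2, which lowers protein synthesis but allows the Atf4 mRNA to be translated. ATF4 then raises genes of amino acid synthesis, amino acid import and redox balance, along with genes that limit the response. The unfolded protein response has a trio of sensors in the ER membrane, PERK, IRE1 and ATF6, and PERK is itself an eIF2 kinase, so the branches share an entry point. ATF6 and the spliced form of XBP1 raise ER chaperones, protein disulfide isomerases and the machinery that sends misfolded proteins to degradation.

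Library totals ran from 18229429 to 23193244 counts. Etv4_KO replicate 2 stood apart from the other libraries of its group: the chi-square of its counts against them was 73.08 to 74.3 per degree of freedom, against 3.34 to 11.64 for the other pairs within a group. Results are therefore given with and without it. Etv4, the targeted gene, was at 162 to 168 CPM (counts scaled to a common library total) in control and at 116, 159 and 116 CPM in Etv4_KO replicates 1 to 3. The libraries with FGF were at 155 to 173 CPM in control and 113 to 120 CPM in Etv4_KO, and counts over a whole gene do not show a small deletion. The log2 fold changes were -0.35 (edgeR adjusted p = 0.0173) and -0.51 (adjusted p = 0.00204), and Etv4_KO replicate 2 lay close to the controls. The summed level of 8 epithelial markers was 4720 to 4890 CPM in control and 4410 to 6330 CPM in Etv4_KO, and with FGF 4800 to 5390 CPM in control and 4000.0 to 4120 CPM in Etv4_KO, with Krt5 at 0. Of the 7 that were tested, 3 fell and 1 rose in each medium. Over all genes 23.3% fell and 22.5% rose without FGF, and 22.2% and 18.0% with FGF. Krt14 (-0.99 and -1.63) and Epcam (-0.43 and -0.42) fell in both media, Cdh1 only without FGF (-0.46) and Krt8 only with FGF (-0.43). Krt19 rose in both (1.41 and 0.91). The part of these markers in the results was not tested. Of 7 fibroblast markers, Dcn, Lum, Pdgfrb and Thy1 were at 0 and the sum, nearly all Pdgfra, was at most 15.9 CPM. The sum of 7 macrophage and leukocyte markers, mostly Cd68 and Cd14, was 17.2 to 20.1 CPM in control groups and 22.8 to 30.6 CPM in Etv4_KO groups, with Adgre1 at 0, and its part in the differences below was not tested. The 5 endothelial markers summed to at most 0.748 CPM. In bulk RNA, a change in the number of cells of a type and a change in RNA per cell cannot be told apart.

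In control cells the ER chaperones were the most abundant members per exon length. In CPM per kb of exon, Hspa5 was at 303, Calr at 237, Hsp90b1 at 197, Pdia3 at 175 and Canx at 166. Among the sensors, Atf6 was at 15.3, Ern1 at 4.90 and Eif2ak3 at 3.59 on the same scale, and the transcription factor Xbp1 was at 21.6. In the ATF4 branch Phgdh was at 114 and Atf4 at 94.5 CPM per kb, while the stress-induced genes Chac1, Trib3 and Sesn2 were between 2.36 and 3.62. Vldlr and Aldh1l2 lay at the limit of detection.

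More members of both branches were higher than lower in Etv4_KO cells, without FGF and with it. Called below means an adjusted p under 0.05 in the edgeR quasi-likelihood test over 12079 genes. Without FGF, 10 of 20 ATF4 branch members rose, 1 fell and 9 were not called, and 8 of 22 ER chaperone members rose, 2 fell and 12 were not called, where 22.5% of all genes tested rose and 23.3% fell. With FGF, 11 ATF4 branch members rose and 2 fell, and 12 ER chaperone members rose and 1 fell, where 18.0% of all genes rose and 22.2% fell. The median log2 fold change was 0.26 and 0.30 in the ATF4 branch and 0.15 and 0.32 in the ER chaperone branch, without and with FGF, beside -0.01 over all genes in each comparison. The members were chosen with earlier results of these data known, so these counts and medians are a description and not a test of the branches.

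**Figure D1:**
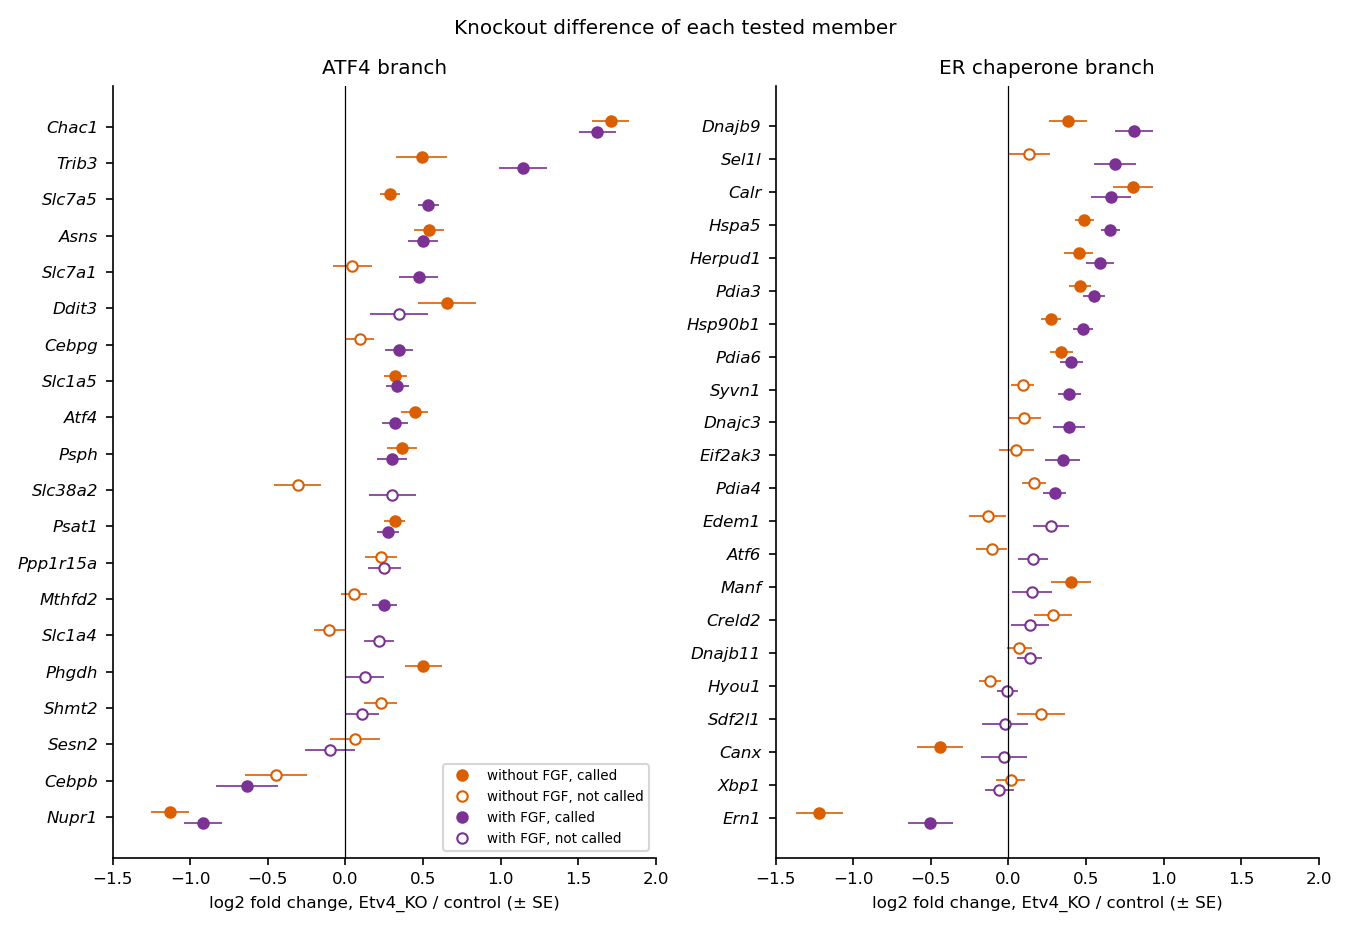
Log2 fold change of Etv4_KO against control for each tested member, without FGF (orange) and with FGF (purple), with SE bars; filled points passed an adjusted p under 0.05. Chac1 lies farthest to the right in the ATF4 branch at 1.71 and 1.62, and Nupr1 and Ern1 lie farthest to the left in their branches.

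Without Etv4_KO replicate 2, which widened the filter to 12235 genes, the counts were 11 higher and 3 lower of 21 ATF4 branch members and 10 higher and 3 lower of 22 ER chaperone members, against 26.3% and 28.2% of all genes. With FGF they were 16 higher and 3 lower in the ATF4 branch and 14 higher and 1 lower in the ER chaperone branch, against 28.1% and 30.5%. Etv4_KO replicate 2 is not among the libraries compared with FGF, nor among those of FGF in control cells. Leaving it out changes those comparisons only through the filter, the scaling and the spread estimated over all libraries. Calls over all genes with FGF thus also rose, from 18.0% and 22.2%. The lower calls in the ATF4 branch then included Vldlr, which passes the filter only through the control libraries and so had to differ where it was tested; without it they were 2 and 2 of 20. Over the 12 fits that left out 1 library each, 8 of the 10 ATF4 branch members that rose without FGF passed in every fit, as did 6 of the 8 ER chaperone members, and with FGF 9 of 11 and 10 of 12. The same share over all called genes was not computed, so these counts do not set the branches apart from other genes.

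The comparisons without and with FGF used separate libraries. Over all genes, 60.4% of those higher without FGF and 75.5% of those higher with FGF were higher in both, and for lower calls the shares were 72.2% and 75.7%. In the ATF4 branch 8 genes rose in both, 80.0% of those called without FGF and 72.7% of those called with it: Atf4, Asns, Chac1, Psat1, Psph, Slc1a5, Slc7a5 and Trib3. In the ER chaperone branch 7 genes rose in both, 87.5% and 58.3% of the respective calls: Calr, Dnajb9, Herpud1, Hsp90b1, Hspa5, Pdia3 and Pdia6. Nupr1 and Ern1 fell in both.

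Atf4, the transcription factor at the head of its branch, was at 233, 216 and 219 CPM in control and 272, 345 and 293 CPM in Etv4_KO. In FGF medium it stood at 207, 223 and 212 CPM in control and 254, 277 and 269 CPM in Etv4_KO. Each knockout library lay above every control library of its medium. The mRNA rose 36.2% without FGF (log2 fold change 0.45 ± 0.08 SE, edgeR adjusted p = 0.000915) and 24.6% with FGF (0.32 ± 0.08, adjusted p = 0.00905). Without Etv4_KO replicate 2, the highest of its group, the log2 fold changes were 0.34 (edgeR adjusted p = 1.69e-05) and 0.32 (adjusted p = 1.02e-05), close to each other. The level of ATF4 protein, which is set largely by translation, was not measured.

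Ddit3, which encodes the stress factor CHOP, was at 10.3, 9.26 and 12.6 CPM in control and 15.3, 23.02 and 12.7 CPM in Etv4_KO, where the highest value was that of replicate 2. FGF-treated libraries were at 12.6, 12.2 and 11.3 CPM in control and 14.9, 17.0 and 14.0 CPM in Etv4_KO. The groups did not overlap in either medium, but the lowest Etv4_KO library without FGF was close to the highest control. Ddit3 rose without FGF (0.66 ± 0.19, adjusted p = 0.0122, and 0.38 without Etv4_KO replicate 2, adjusted p = 0.0187). With FGF the difference was 0.35 ± 0.19 and missed the threshold (edgeR adjusted p = 0.161). It passed in the compared libraries alone (0.341, edgeR adjusted p = 0.0117). The same difference also passed without Etv4_KO replicate 2, a library outside this comparison (0.345, edgeR adjusted p = 0.0146). The call without FGF ended without control replicate 2 (adjusted p = 0.0573) and in the compared libraries alone (adjusted p = 0.0593).

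Among the partners of ATF4, Cebpg, which forms dimers with it, differed by 0.09 ± 0.09 without FGF and rose with FGF (0.34 ± 0.09, adjusted p = 0.00895). Cebpb, another C/EBP factor, was at 40.8, 46.8 and 58.8 CPM in control and 45.5, 39.1 and 22.8 CPM in Etv4_KO, with overlapping groups (-0.45 ± 0.20, adjusted p = 0.082, and -0.52 without Etv4_KO replicate 2, adjusted p = 0.0128). With FGF it was at 43.5, 47.6 and 52.1 CPM in control and 29.1, 32.9 and 30.2 CPM in Etv4_KO, and each knockout library was below every control. Cebpb fell with FGF (-0.64 ± 0.20, adjusted p = 0.0217), a call that ended when any of 4 libraries was left out (control with FGF replicate 2 or 3, Etv4_KO with FGF replicate 1 or 3, adjusted p 0.0514 to 0.0776).

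Chac1 and Nupr1, both known as stress-induced ATF4 targets, moved in opposite directions. Chac1, an enzyme that breaks down glutathione, was at 6.35, 6.04 and 5.38 CPM in control and 19.6, 21.2 and 17.5 CPM in Etv4_KO. Under FGF the level was at 7.07, 6.87 and 7.95 CPM in control and 22.0, 25.1 and 20.4 CPM in Etv4_KO. The lowest knockout library was above every control library in either medium, and the mean level was 3.27 times that of control without FGF (1.71 ± 0.12, adjusted p = 2.25e-07) and 3.08 times with FGF (1.62 ± 0.12, adjusted p = 2.76e-07). Nupr1, a small chromatin-associated stress protein, was at 74.4, 78.6 and 70.5 CPM in control and 31.7, 42.3 and 28.4 CPM in Etv4_KO. The libraries with FGF were at 60.7, 68.7 and 60.0 CPM in control and 31.5, 34.8 and 33.8 CPM in Etv4_KO. Here each knockout library lay below every control, and Nupr1 fell by 54.3% (-1.13 ± 0.12, adjusted p = 1.12e-05) and by 47.1% (-0.92 ± 0.12, adjusted p = 6.56e-05).

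**Figure D2:**
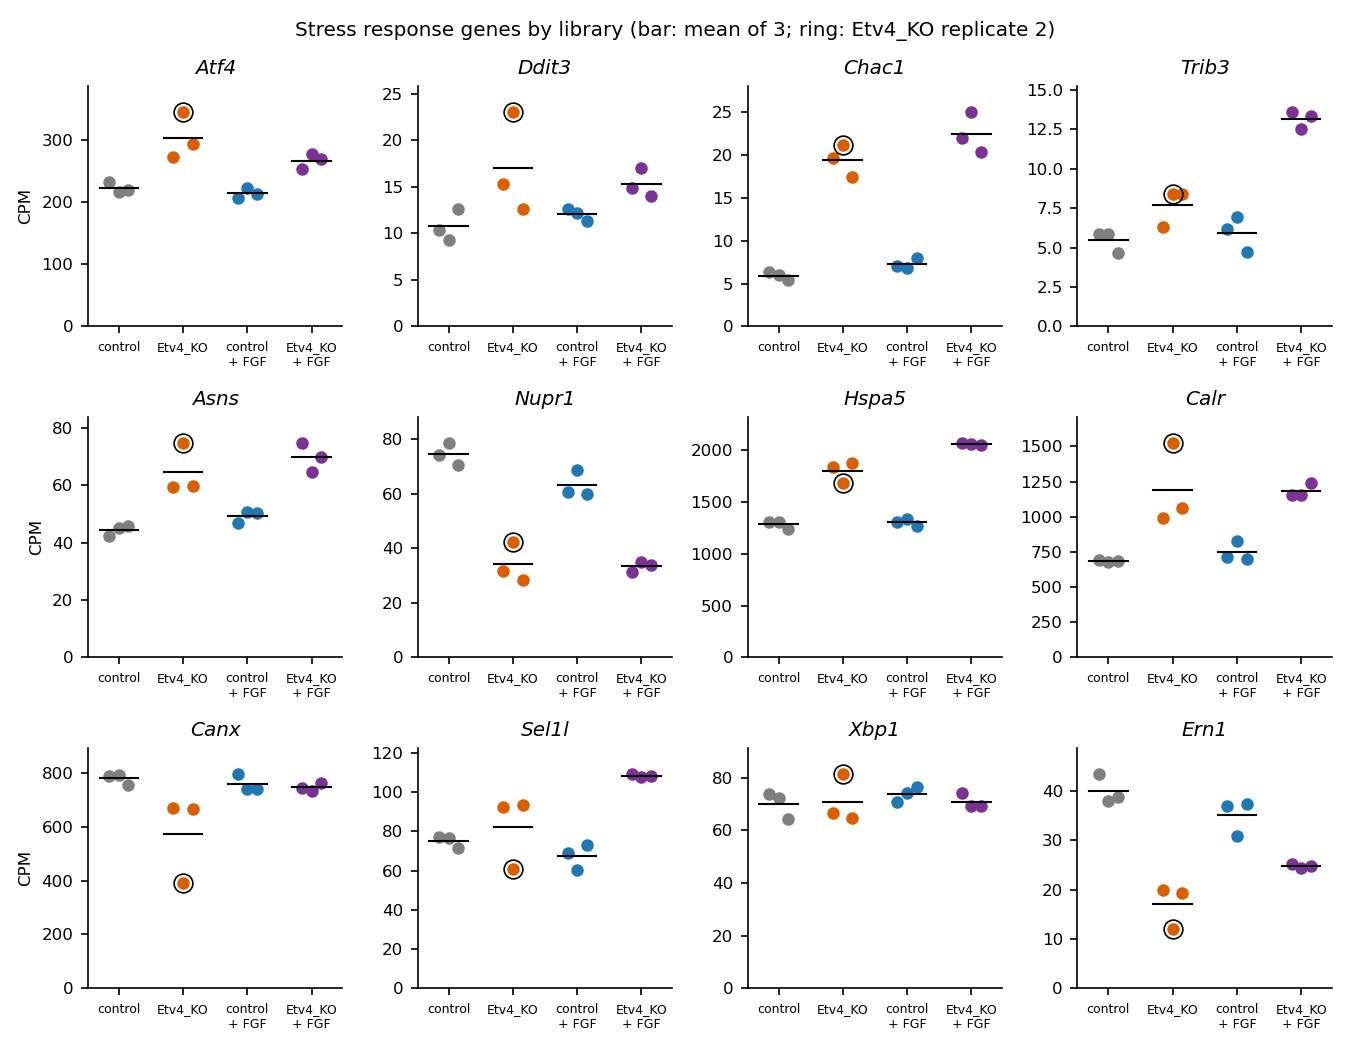
CPM of 12 members in each library of the 4 groups; bars are means of 3 libraries and the ring marks Etv4_KO replicate 2. Chac1, Atf4 and Hspa5 are higher and Nupr1 and Ern1 lower in all 6 Etv4_KO libraries, while Trib3 and Sel1l are highest in the Etv4_KO libraries with FGF.

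Promoter windows of RefSeq (GRCm38.p6, 250 bases before to 50 after the start site) were found for 38 members, 19 in each branch. The C/EBP-ATF element through which ATF4 and C/EBP factors bind was searched as TGATGNAAN on both strands. It was in 6 of 19 ATF4 branch members (31.6%: Asns, Chac1, Nupr1, Slc1a4, Trib3 and Vldlr), in 1 of 19 ER chaperone members (5.26%, Herpud1) and in 4.5% of all 27025 genes with a window. The 250 bases before the start sites of Chac1 and Nupr1 are shown because these genes share the element and moved in opposite directions, with the fixed bases of the element in capitals on the opposite strand, starting 193 and 110 bases before the start site. A match is a description of the sequence and not evidence of binding.
Chac1 (chr2:119350992-119351241, plus strand): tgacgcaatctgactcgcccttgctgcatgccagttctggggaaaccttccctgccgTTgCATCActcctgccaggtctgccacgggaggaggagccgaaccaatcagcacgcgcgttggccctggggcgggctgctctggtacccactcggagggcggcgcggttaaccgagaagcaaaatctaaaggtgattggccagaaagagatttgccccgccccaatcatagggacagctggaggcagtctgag
Nupr1 (chr7:126625471-126625720, minus strand): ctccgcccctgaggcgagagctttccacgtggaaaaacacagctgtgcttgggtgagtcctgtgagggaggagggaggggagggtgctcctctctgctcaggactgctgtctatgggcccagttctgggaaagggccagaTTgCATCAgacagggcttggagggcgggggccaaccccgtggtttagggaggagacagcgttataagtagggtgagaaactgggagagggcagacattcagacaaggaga

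The other holders of the element also differed in direction: Asns and Trib3 rose, Slc1a4 was not called, and Vldlr had no count in any Etv4_KO library. Vldlr, a lipoprotein receptor induced by stress, had 21 counts over the control libraries and 36 over those with FGF. At a floor of 3 counts per group it was at least 7.03-fold lower without FGF and at least 11.9-fold lower with FGF in Etv4_KO, counting error only. Aldh1l2, a mitochondrial folate enzyme, had at most 7 counts in any group and no comparison was made.

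Trib3, a pseudokinase that restrains ATF4 signalling, was at 5.88, 5.86 and 4.68 CPM in control and 6.31, 8.39 and 8.41 CPM in Etv4_KO. In FGF medium it stood at 6.19, 6.97 and 4.72 CPM in control and 13.6, 12.5 and 13.4 CPM in Etv4_KO. The 3 Etv4_KO libraries with FGF stood above all 9 others. Trib3 rose in Etv4_KO by 40.5% without FGF (0.49 ± 0.16, adjusted p = 0.0266) and by 121.0% with FGF (1.14 ± 0.16, adjusted p = 7.98e-05). The call without FGF ended without control replicate 3 (adjusted p = 0.103) or Etv4_KO replicate 3 (adjusted p = 0.0828), and after a correction for exon length and GC content (adjusted p = 0.102). Ppp1r15a and Sesn2 were not called in either comparison. Ppp1r15a, which directs dephosphorylation of eIF2, was 0.23 ± 0.10 and 0.25 ± 0.10. The latter was called without Etv4_KO replicate 2 (edgeR adjusted p = 0.00152) and when corrected for length and GC (edgeR adjusted p = 0.00393). Sesn2, which restrains mTORC1, was 0.06 ± 0.16 and -0.10 ± 0.16.

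Of the amino acid synthesis genes, Asns, asparagine synthetase, was at 42.1, 45.1 and 45.6 CPM in control and 59.2, 74.7 and 59.6 CPM in Etv4_KO. FGF-treated libraries were at 46.8, 50.8 and 50.2 CPM in control and 74.6, 64.5 and 69.8 CPM in Etv4_KO. No knockout library overlapped the controls, and Asns rose 45.5% (0.54 ± 0.10, adjusted p = 0.00058) and 41.4% (0.50 ± 0.10, adjusted p = 0.0011). Serine synthesis runs through Phgdh, Psat1 and Psph in that order, and all 3 rose without FGF. Phgdh, the first enzyme, was at 282, 276 and 295 CPM in control and 352, 511 and 344 CPM in Etv4_KO, where replicate 2 was the highest. With FGF it was at 274, 298 and 281 CPM in control and 325, 305 and 301 CPM in Etv4_KO, a narrow gap with no overlap. Phgdh rose without FGF (0.50 ± 0.12, adjusted p = 0.00455, and 0.29 without Etv4_KO replicate 2, adjusted p = 5.44e-05) and was not called with FGF (0.13 ± 0.12, adjusted p = 0.438), a difference that passed without Etv4_KO replicate 2 (0.13, adjusted p = 0.0243). Psat1 rose by 0.32 ± 0.07 and 0.27 ± 0.07, and Psph by 0.36 ± 0.10 and 0.30 ± 0.10, without and with FGF; the Psph call with FGF ended without any of 3 libraries (control with FGF replicate 1, Etv4_KO with FGF replicate 2 or 3, adjusted p 0.0734 to 0.12). The mitochondrial folate enzymes differed less: Shmt2 was 0.23 ± 0.11 and 0.11 ± 0.11 and not called, and Mthfd2 was 0.05 ± 0.08 without FGF and rose by 0.25 ± 0.08 with FGF (adjusted p = 0.0262), a call lost without any of 4 libraries (control with FGF replicate 1 or 3, Etv4_KO with FGF replicate 1 or 2, adjusted p 0.066 to 0.0946).

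Among the amino acid transporters, Slc7a5, which imports leucine and other large neutral amino acids, was at 177, 170 and 183 CPM in control and 214, 225 and 208 CPM in Etv4_KO. Under FGF the level was at 167, 183 and 183 CPM in control and 265, 248 and 258 CPM in Etv4_KO. Its libraries did not overlap between genotypes, and the Etv4_KO libraries with FGF were above all others. Slc7a5 rose 22.0% without FGF (0.29 ± 0.07, adjusted p = 0.00365) and 44.8% with FGF (0.53 ± 0.07, adjusted p = 3.98e-05). Slc1a5, a glutamine carrier, rose by 0.32 ± 0.07 and 0.33 ± 0.07. Slc7a1, an importer of arginine and lysine, was 0.04 ± 0.12 without FGF and rose by 0.47 ± 0.12 with FGF (adjusted p = 0.00855), while without Etv4_KO replicate 2 it also rose without FGF (0.22, adjusted p = 0.00254). Slc38a2, a carrier of small neutral amino acids, was -0.31 ± 0.15 without FGF and 0.30 ± 0.15 with FGF, neither called, and without Etv4_KO replicate 2 the first was -0.10 (adjusted p = 0.172) and the second passed (0.30, adjusted p = 3.27e-05). Slc1a4, a carrier of alanine, serine and cysteine, was not called (-0.10 ± 0.10 and 0.22 ± 0.10), and with FGF it passed without Etv4_KO replicate 2 (adjusted p = 0.024).

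In the ER chaperone branch, Hspa5 and Hsp90b1 rose in both media, and the luminal chaperone Hyou1 was not called in either. Hspa5, the chaperone BiP that holds the sensors inactive, was at 1306, 1303 and 1238 CPM in control and 1836, 1686 and 1879 CPM in Etv4_KO. The libraries with FGF were at 1309, 1332 and 1270 CPM in control and 2068, 2054 and 2047 CPM in Etv4_KO. The genotypes did not overlap, and the Etv4_KO libraries with FGF were the 3 highest of all 12. Hspa5 rose 40.4% without FGF (0.49 ± 0.06, adjusted p = 2.7e-05) and 57.8% with FGF (0.66 ± 0.06, adjusted p = 2.06e-06). Hsp90b1, the ER form of HSP90, rose by 0.28 ± 0.07 and 0.48 ± 0.07.

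Calr and Canx, the soluble and the membrane-bound lectin chaperone of the same folding cycle, parted. Calr was at 690, 680 and 682 CPM in control and 992, 1525 and 1062 CPM in Etv4_KO. In FGF medium it stood at 714, 829 and 699 CPM in control and 1158, 1152 and 1238 CPM in Etv4_KO. Each knockout library was above every control, with replicate 2 the highest. Calr rose 74.4% without FGF (0.80 ± 0.13, adjusted p = 0.000271, and 0.59 without Etv4_KO replicate 2) and 58.2% with FGF (0.66 ± 0.13, adjusted p = 0.00121). Canx averaged 780 ± 20.4 CPM (SD, n = 3) in control and 575 ± 159 CPM in Etv4_KO, where replicate 2 was at 391 and the others at 668 and 666. It fell without FGF (-0.44 ± 0.15, adjusted p = 0.0275), and was -0.23 without Etv4_KO replicate 2 (adjusted p = 0.000291), but the call ended without control replicate 1, 2 or 3 (adjusted p 0.0519 to 0.0726). With FGF Canx was at 760 ± 31.6 CPM in control and 747 ± 14.0 CPM in Etv4_KO (-0.03 ± 0.15, adjusted p = 0.908).

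The ER stress element (ERSE), a site for ATF6 and XBP1 together with the factor NF-Y, was searched as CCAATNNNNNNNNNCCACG on both strands. It was in 8 of 19 ER chaperone members (42.1%: Calr, Canx, Creld2, Dnajc3, Hsp90b1, Hspa5, Pdia6 and Syvn1), in none of 19 ATF4 branch members and in 37 genes, 0.137% of all genes with a window. Its variant ERSE-II was in Dnajb11 and Herpud1 (10.5%, against 0.0444% of all), and the element UPRE was in no member and in 0.714% of all. The sequences before Hspa5, Calr and Canx are shown because all 3 hold an ERSE while Hspa5 and Calr rose in both media and Canx did not. Herpud1 is shown as the member with an ERSE-II and the C/EBP-ATF element, whose fixed bases begin 52 and 112 bases before the start site. Capitals mark the fixed bases, which begin 65, 162 and 145 bases before the start site in Hspa5, Calr and Canx, on the opposite strand in Calr and for the C/EBP-ATF element of Herpud1.
Hspa5 (chr2:34771840-34772089, plus strand): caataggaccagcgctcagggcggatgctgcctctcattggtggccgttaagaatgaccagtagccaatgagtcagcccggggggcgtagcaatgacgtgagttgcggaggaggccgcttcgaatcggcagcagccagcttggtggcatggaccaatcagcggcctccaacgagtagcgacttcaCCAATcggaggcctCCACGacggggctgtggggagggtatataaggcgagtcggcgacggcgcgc
Calr (chr8:84846932-84847181, minus strand): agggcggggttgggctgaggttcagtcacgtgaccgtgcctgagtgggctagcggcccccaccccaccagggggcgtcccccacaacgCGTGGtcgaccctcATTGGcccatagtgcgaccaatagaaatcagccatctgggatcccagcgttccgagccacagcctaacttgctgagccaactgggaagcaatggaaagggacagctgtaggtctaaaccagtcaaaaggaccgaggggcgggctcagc
Canx (chr11:50325674-50325923, minus strand): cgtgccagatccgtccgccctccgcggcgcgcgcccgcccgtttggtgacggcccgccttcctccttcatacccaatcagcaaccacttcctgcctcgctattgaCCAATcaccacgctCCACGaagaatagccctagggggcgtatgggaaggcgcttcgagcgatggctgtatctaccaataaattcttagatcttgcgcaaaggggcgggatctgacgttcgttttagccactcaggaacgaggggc
Herpud1 (chr8:94386179-94386428, plus strand): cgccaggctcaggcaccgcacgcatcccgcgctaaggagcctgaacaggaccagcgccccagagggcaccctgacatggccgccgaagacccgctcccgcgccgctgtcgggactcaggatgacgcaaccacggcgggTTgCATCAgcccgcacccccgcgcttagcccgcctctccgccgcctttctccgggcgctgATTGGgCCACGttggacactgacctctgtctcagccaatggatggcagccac

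Of the 8 members with an ERSE, Calr, Hsp90b1, Hspa5 and Pdia6 rose in both media, Dnajc3 and Syvn1 rose with FGF, Creld2 was not called and Canx fell without FGF.

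Of the disulfide isomerases, Pdia3, which works with Calr and Canx on glycoproteins, was at 572, 548 and 530 CPM in control and 715, 834 and 724 CPM in Etv4_KO. FGF-treated libraries were at 534, 579 and 544 CPM in control and 796, 817 and 820 CPM in Etv4_KO. The genotypes were fully separated, and Pdia3 rose 37.7% (0.46 ± 0.07, adjusted p = 0.000172) and 46.8% (0.55 ± 0.07, adjusted p = 4.26e-05). Pdia6 rose by 0.34 ± 0.07 and 0.40 ± 0.07, and Pdia4 was 0.16 ± 0.08 without FGF and rose by 0.30 ± 0.08 with FGF (adjusted p = 0.00674).

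Among the J-domain cochaperones, Dnajb9, which acts with BiP and represses IRE1, was at 19.98, 20.8 and 19.5 CPM in control and 27.7, 20.7 and 30.0 CPM in Etv4_KO. With FGF it was at 21.1, 17.5 and 19.1 CPM in control and 31.7, 35.1 and 34.7 CPM in Etv4_KO. Without FGF Etv4_KO replicate 2 lay among the controls, and with FGF the groups were apart. Dnajb9 rose 30.4% (0.38 ± 0.12, adjusted p = 0.0227) and 75.4% (0.81 ± 0.12, adjusted p = 0.000185). The call without FGF ended without control replicate 1 or 3 or Etv4_KO replicate 1 or 3 (adjusted p 0.0619 to 0.0974) and held without Etv4_KO replicate 2 (0.52, adjusted p = 3.39e-05). Dnajc3, an ER cochaperone also known as an inhibitor of eIF2 kinases, was 0.10 ± 0.11 and rose by 0.39 ± 0.11 with FGF (adjusted p = 0.00951, and 0.0522 without control with FGF replicate 2). Dnajb11 was not called in either medium (0.07 ± 0.08 and 0.14 ± 0.08).

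The sensors did not move as a group. Ern1, which encodes IRE1α, was at 43.5, 37.9 and 38.7 CPM in control and 19.9, 12.1 and 19.3 CPM in Etv4_KO. Under FGF the level was at 37.1, 30.9 and 37.3 CPM in control and 25.2, 24.3 and 24.8 CPM in Etv4_KO. Every knockout library lay below every control. Ern1 fell by 57.1% without FGF (-1.22 ± 0.15, adjusted p = 3.17e-05) and by 29.5% with FGF (-0.50 ± 0.15, adjusted p = 0.0148), the latter lost without control with FGF replicate 1 or 3 (adjusted p = 0.0549 and 0.0571).

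Eif2ak3, which encodes PERK, was at 20.4, 24.3 and 20.3 CPM in control and 26.2, 19.8 and 21.2 CPM in Etv4_KO, with overlap. The libraries with FGF were at 20.2, 19.2 and 19.1 CPM in control and 25.9, 23.5 and 25.2 CPM in Etv4_KO, with none. It was 0.05 ± 0.11 without FGF and rose by 0.35 ± 0.11 with FGF (adjusted p = 0.0245), a call lost without any of 4 libraries (control with FGF replicate 2 or 3, Etv4_KO with FGF replicate 1 or 3, adjusted p 0.0678 to 0.0816). Atf6, the sensor that is cut in the Golgi to release a transcription factor, was at 146, 141 and 136 CPM in control and 141, 107 and 145 CPM in Etv4_KO. In FGF medium it stood at 135, 138 and 134 CPM in control and 154, 151 and 147 CPM in Etv4_KO. Atf6 was not called (-0.11 ± 0.10, adjusted p = 0.38, and 0.16 ± 0.10, adjusted p = 0.222), although the groups with FGF did not overlap and the difference passed without Etv4_KO replicate 2 (0.16, adjusted p = 0.00779). Xbp1, whose mRNA is spliced by IRE1, was at 73.7, 72.3 and 64.4 CPM in control and 66.5, 81.4 and 64.7 CPM in Etv4_KO. FGF-treated libraries were at 70.7, 74.2 and 76.5 CPM in control and 74.3, 69.1 and 69.2 CPM in Etv4_KO. The groups overlapped in both media (0.01 ± 0.09, adjusted p = 0.913, and -0.06 ± 0.09, adjusted p = 0.652), and counts per gene do not separate the spliced form.

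In ER-associated degradation, Herpud1, a scaffold of the degradation complex, was at 26.2, 24.9 and 21.1 CPM in control and 31.8, 35.4 and 31.9 CPM in Etv4_KO. With FGF it was at 24.4, 24.1 and 25.9 CPM in control and 36.3, 36.9 and 38.7 CPM in Etv4_KO. There was no overlap, and Herpud1 rose 36.9% (0.45 ± 0.09, adjusted p = 0.00143) and 50.4% (0.59 ± 0.09, adjusted p = 0.000214). Sel1l, the adaptor of the ubiquitin ligase HRD1, was at 77.1, 76.6 and 71.6 CPM in control and 92.7, 60.6 and 93.6 CPM in Etv4_KO, where replicate 2 was below the controls. Under FGF the level was at 68.8, 60.1 and 73.1 CPM in control and 109, 108 and 108 CPM in Etv4_KO, a clear separation. Sel1l was 0.13 ± 0.13 without FGF (adjusted p = 0.441, and 0.31 without Etv4_KO replicate 2, adjusted p = 0.00043) and rose 61.1% with FGF (0.69 ± 0.13, adjusted p = 0.00121). Syvn1, which encodes HRD1, rose with FGF (0.39 ± 0.07, adjusted p = 0.000935) and was 0.09 ± 0.07 without it. Edem1, a lectin that marks glycoproteins for degradation, was not called (-0.14 ± 0.12 and 0.27 ± 0.12), and with FGF it passed without Etv4_KO replicate 2 (adjusted p = 0.000371). Of the secreted or luminal members, Manf, a neurotrophic ER factor, rose without FGF (0.40 ± 0.13, adjusted p = 0.0207, lost without control replicate 1 or 2 at 0.0767 and 0.0617) and was 0.15 ± 0.13 with FGF. Creld2 (0.28 ± 0.12 and 0.14 ± 0.12), Sdf2l1 (0.21 ± 0.15 and -0.02 ± 0.15) and Hyou1 (-0.12 ± 0.07 and -0.01 ± 0.07) were not called in either medium, and Hyou1 passed as lower without FGF when Etv4_KO replicate 2 was left out (-0.19, adjusted p = 0.00584).

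Etv4_KO replicate 2 departed from the other libraries of its group along exon length. Against the mean of replicates 1 and 3, Canx was at 0.586, Slc38a2 at 0.591, Ern1 at 0.617, Sel1l at 0.651 and Slc7a1 at 0.663 in this library. Calr was at 1.48, Phgdh at 1.47 and Manf at 1.42. Across 41 members with a gene model, this deviation had a Spearman correlation with exon length of -0.711, and the value for GC content was 0.483. Across 11955 genes the values were -0.467 and 0.496. These are descriptions over genes that share a library.

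**Figure D3:**
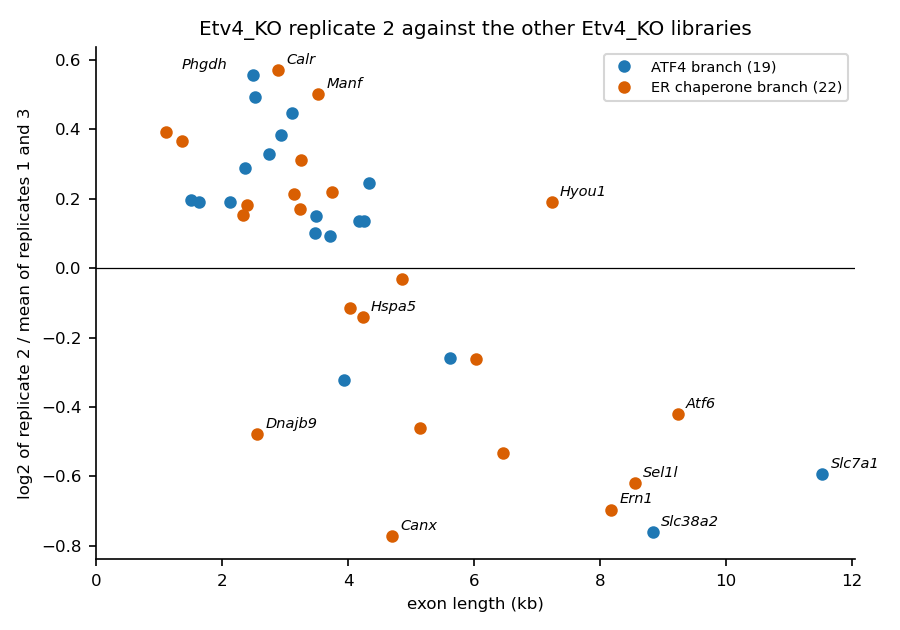
Log2 ratio of Etv4_KO replicate 2 to the mean of replicates 1 and 3 for 41 members, against exon length in kb; blue, ATF4 branch, orange, ER chaperone branch. Members with long exons, such as Slc7a1, Slc38a2, Sel1l and Ern1, lie below 0, and Hyou1 is an exception.

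FGF itself was compared within each genotype, and these comparisons share their libraries with the knockout comparisons. In control cells edgeR called 0 of 20 ATF4 branch and 0 of 22 ER chaperone members, where 0.488% of all genes were called in either direction. At an unadjusted p under 0.05 there were 4 and 1, where 720 of all 12079 genes were. By limma-voom 0 and 0 were called, where 36 of all genes were called higher and 31 lower. DESeq2 called 1 and 0, the 1 being Ppp1r15a, where it called 85 of all genes higher and 58 lower. Ppp1r15a was at 59.7 ± 1.83 CPM (SD, n = 3) in control and 45.6 ± 1.30 CPM with FGF (-0.39 ± 0.10, adjusted p = 0.225). Without Etv4_KO replicate 2, Ppp1r15a (adjusted p = 0.000376) and Nupr1 (-0.24, adjusted p = 0.0446) passed as lower and Sdf2l1 (0.44, adjusted p = 0.0488) as higher, against 2.8% of all genes.

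In Etv4_KO cells FGF raised 2 ATF4 branch members, Trib3 and Mthfd2, and edgeR called 0 of 22 ER chaperone members, where 1.47% of all genes rose and 0.944% fell. Trib3, with the values above, was 71.1% higher with FGF (0.77 ± 0.15, adjusted p = 0.0197). Mthfd2, which makes formyl groups in mitochondria, went from 45.7 ± 4.43 CPM (SD, n = 3) to 60.4 ± 2.41 CPM (0.40 ± 0.08, adjusted p = 0.023). Both calls ended without Etv4_KO replicate 1 or any 1 of the 3 Etv4_KO libraries with FGF (adjusted p 0.0522 to 0.0852 for Trib3 and 0.053 to 0.113 for Mthfd2). Of the 22 ER chaperone members 19 had a positive log2 fold change, beside 5601 of all 12079 genes. An unadjusted edgeR p under 0.05 was reached by 11 members, beside 2377 of all genes. The branch median was 0.18, beside -0.02 over all genes. DESeq2 called 4 ER chaperone members as higher and 6 ATF4 branch members as higher with 1 lower. It called 3.44% of all genes higher and 2.65% lower. By limma-voom 0 ER chaperone members were called and 2 ATF4 branch members were higher, where 1.57% of all genes rose and 0.803% fell. Without Etv4_KO replicate 3, edgeR called 5 ATF4 branch members in either direction. The share over all genes in that fit is not given, so this count does not set the branch apart.

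Without Etv4_KO replicate 2 the same comparison called 10 of 22 ER chaperone members as higher and none as lower, where 4.78% of all genes rose and 2.98% fell. They were Hspa5, Calr, Canx, Pdia3, Pdia4, Ern1, Dnajb11, Dnajc3, Hyou1 and Sel1l, at adjusted p 0.00407 for Hyou1 to 0.0451 for Dnajc3. The size was modest: Hspa5 was 0.15, Sel1l 0.22 and Ern1 0.34 on the log2 scale. All 22 members had a positive log2 fold change, with a median of 0.18, where 5992 of 12235 genes were positive. In the ATF4 branch 6 of 21 were then higher (Trib3, Mthfd2, Slc38a2, Slc7a5, Slc7a1 and Asns) and Ppp1r15a was lower. With all libraries kept and a correction for exon length and GC content, 5 ATF4 branch members (Trib3, Mthfd2, Slc7a5, Slc7a1 and Slc38a2) and 5 ER chaperone members (Ern1, Dnajb11, Dnajc3, Sel1l and Syvn1) were called higher. Phgdh was called lower (-0.22, adjusted p = 0.0375), and 3.69% of all genes were higher and 2.51% lower in that fit.

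**Figure D4:**
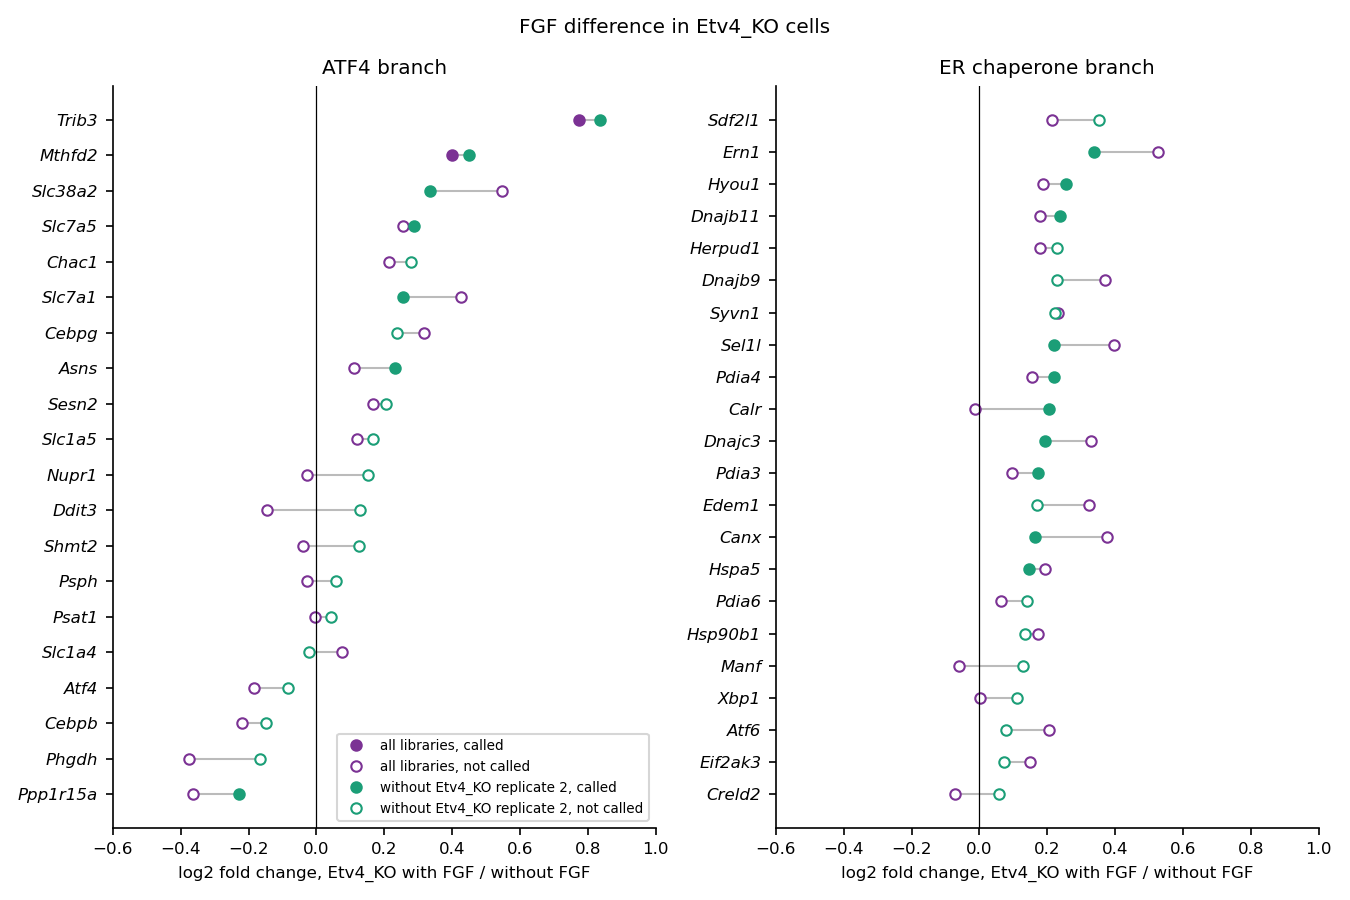
Log2 fold change of Etv4_KO with FGF against Etv4_KO without FGF for each member, with all libraries (purple) and without Etv4_KO replicate 2 (green); filled points passed an adjusted p under 0.05. Without that library all 22 ER chaperone members lie to the right of 0 and 10 are filled, against none filled with it. Over all genes in that fit, 5992 of 12235 were positive and 4.78% passed as higher.

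As a description of each library, the mean over a branch of log2(CPM + 0.5), centred on each gene's mean over the 12 libraries, was taken. For the ER chaperone branch the control libraries were at -0.08, -0.11 and -0.14 and the Etv4_KO libraries at 0.01, -0.04 and 0.03. Under FGF this branch was at -0.11, -0.06 and -0.11 in control and at 0.18, 0.21 and 0.22 in Etv4_KO. The ATF4 branch was at -0.12, -0.15 and -0.13 in control and at 0.05, 0.16 and -0.01 in Etv4_KO, and under FGF at -0.14, -0.08 and -0.10 in control and at 0.18, 0.19 and 0.17 in Etv4_KO. In both branches the Etv4_KO libraries lay above all controls and the Etv4_KO libraries with FGF above those without. Over all 12079 genes the same mean was 0.04 in control and -0.04 in Etv4_KO groups, the opposite order.

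**Figure D5:**
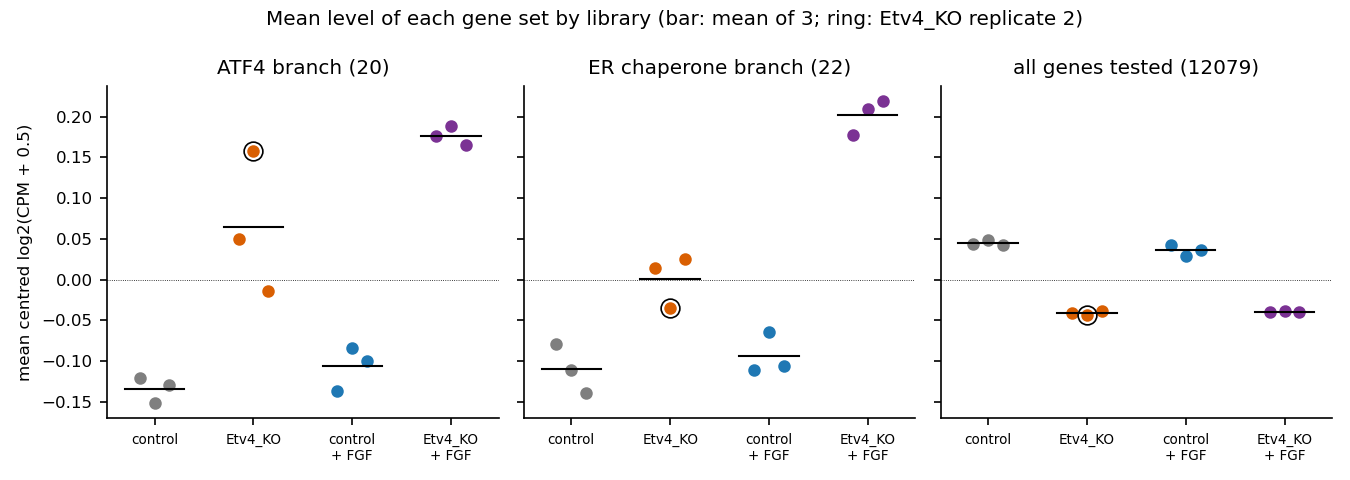
Mean centred log2(CPM + 0.5) of the 20 tested ATF4 branch genes, the 22 ER chaperone genes and all 12079 tested genes in each library; bars are means of 3 libraries and the ring marks Etv4_KO replicate 2. The ER chaperone level is near -0.1 in both control groups, near 0 in Etv4_KO and near 0.2 in Etv4_KO with FGF.

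Whether the knockout difference itself depended on FGF was tested as an interaction. In edgeR 0 of 20 and 0 of 22 members passed, where 0.0166% of all genes did. At an unadjusted p under 0.05 there were 6 members of each branch, where 1227 of all 12079 genes were. DESeq2 and limma-voom also called no member, where DESeq2 called 42 genes higher and 25 lower and limma-voom 3 and 1. The largest differences among the members were those of Ern1 (0.72 ± 0.21, adjusted p = 0.411), Trib3 (0.65 ± 0.23, adjusted p = 0.467), Slc38a2 (0.61 ± 0.21, adjusted p = 0.474) and Sel1l (0.56 ± 0.19, adjusted p = 0.455). Without Etv4_KO replicate 2, Slc38a2 (0.40, adjusted p = 0.0106), Ern1 (0.53, adjusted p = 0.032) and Sel1l (0.38, adjusted p = 0.0416) passed, against 0.981% of all genes, and Trib3 did not (0.72, adjusted p = 0.137). The smaller fall of Ern1 and the rise of Sel1l with FGF are thus not shown to depend on FGF with all libraries kept.

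Other genes of the same pathways, from lists that do not include the members, are given by their counts. Of 26 further ATF4 program genes, 9 rose and 12 fell in Etv4_KO without FGF, and 10 rose and 10 fell with FGF. Without Etv4_KO replicate 2 these counts were 10 and 11, then 12 and 11. Their median log2 fold change with all libraries was -0.263 without FGF and 0.155 with FGF. For this and the following lists, the shares over all genes were 22.5% higher and 23.3% lower without FGF and 18.0% and 22.2% with FGF, or 26.3% and 28.2%, then 28.1% and 30.5%, without Etv4_KO replicate 2. Atf5, a related stress factor, went from 21.2 ± 2.55 to 73.0 ± 19.9 CPM without FGF (1.78 ± 0.16, adjusted p = 1.77e-06). Under FGF it was at 23.9 ± 1.82 CPM in control and 65.7 ± 0.839 CPM in Etv4_KO (1.46 ± 0.16, adjusted p = 9.37e-06). Jdp2, a repressor of AP-1 and ATF sites, rose by 0.97 ± 0.14 and 0.94 ± 0.14, and Pck2, the mitochondrial PEP carboxykinase, by 0.65 ± 0.09 without FGF. Ddit4, an inhibitor of mTORC1 induced by stress, fell from 355 ± 45.4 to 169 ± 34.2 CPM without FGF (-1.07 ± 0.15, adjusted p = 7.81e-05), and Klhl24 fell in both media (-1.41 and -0.98). Stc2, a secreted stress glycoprotein, had 92 counts in control and none in Etv4_KO, at least 30.8-fold lower at 3 counts over the group. With no count in Etv4_KO, it passed the filter through other groups and had to differ, so its call adds nothing to the 12.

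In Etv4_KO cells FGF changed 2 of these 26 genes, 1 higher and 1 lower, where 1.47% of all genes rose and 0.944% fell. Slc7a11, the cystine importer, rose from 9.42 ± 3.78 to 29.5 ± 1.97 CPM (1.63 ± 0.22, adjusted p = 0.00176). Atf3, another stress-induced factor, fell from 209 ± 35.4 to 121 ± 11.3 CPM (-0.79 ± 0.11, adjusted p = 0.00176). Without Etv4_KO replicate 2, 7 rose and 2 fell, against 4.78% and 2.98% of all genes.

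Of 12 aminoacyl-tRNA synthetases of the ATF4 program, 8 rose without FGF (where 22.5% of all genes rose) and 7 with FGF (18.0%), and none fell, or 9 and 11 rose without Etv4_KO replicate 2. Tars went from 161 ± 4.03 to 233 ± 14.7 CPM (0.53 ± 0.07, adjusted p = 3.13e-05) and Cars from 84.9 ± 2.8 to 133 ± 19.1 CPM (0.65 ± 0.09, adjusted p = 8.64e-05) without FGF. Of 8 synthetases outside that program 3 rose and 2 fell without FGF and 1 rose and 2 fell with FGF, or 2 and 3 in each medium without Etv4_KO replicate 2. Of 15 genes of the eIF2 kinases, eIF2 and eIF2B, 7 rose without FGF and none fell, and 6 rose and 2 fell with FGF. Without Etv4_KO replicate 2 these were 9 and 3, and 10 and 3. They include Eif2s1, the α subunit that the kinases modify (0.49 ± 0.08 and 0.31 ± 0.08), Eif2ak4, the amino acid sensor GCN2 (0.39 ± 0.08 without FGF), and Eif2ak2, the kinase PKR (0.43 ± 0.09 with FGF).

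The ER lists are to be read against the shares over all genes, 22.5% higher and 23.3% lower without FGF and 18.0% and 22.2% with FGF. Without Etv4_KO replicate 2 these shares were 26.3% and 28.2%, then 28.1% and 30.5%. The 24 translocation and glycosylation genes had 3 higher and 6 lower without FGF and 3 and 3 with FGF. Without Etv4_KO replicate 2 they had 4 and 11 and then 6 and 7. The 22 further folding enzymes had 6 and 6 and then 8 and 6, or 8 and 8 and then 9 and 9 without that library. Fkbp11 and Fkbp14, ER prolyl isomerases, fell in both media (-0.92 and -1.28 for Fkbp11, -1.81 and -2.69 for Fkbp14), while Fkbp2 of the same family rose by 1.01 ± 0.17 and 0.83 ± 0.17. Of 21 further degradation genes 4 rose and 4 fell without FGF and 5 and 3 with FGF, or 4 and 6 and then 6 and 5 without Etv4_KO replicate 2. Of 19 other sensors and regulators 7 rose and 4 fell without FGF and 4 and 3 with FGF, or 6 and 6 and then 7 and 4 without Etv4_KO replicate 2. Among them Atf6b, the paralogue of Atf6, rose by 0.83 ± 0.11 and 0.74 ± 0.11, and Nfya, a subunit of the NF-Y complex that binds the CCAAT part of the ERSE, by 0.45 ± 0.07 and 0.51 ± 0.07. Creb3l2, an ER-bound factor of the ATF6 type, fell in both media (-0.85 and -0.67). Creb3l4, also called lower, was at 1.64 and 1.76 CPM in control and 0.0736 and 0.305 CPM in Etv4_KO, without and with FGF. It passed the filter only through the control libraries and so had to differ where it was tested.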

How the data were processed

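The deposited table holds raw, not normalized, read counts per gene symbol for 12 libraries. Per the submitters' processing notes, the tools named are STAR 2.7.9a, R 4.1.1, FastQC 0.11.9 and featureCounts, and the named builds are mm10 and hg38. Not given in the sources used here are the annotation release, the strand setting and how multi-mapping reads were handled, which makes counts of overlapping or near-identical genes uncertain. The members, branches and lists were chosen with earlier results of these data known.

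From the deposited counts, genes were filtered with filterByExpr, scaled by TMM and tested two-sided by quasi-likelihood (edgeR 4.0.16, R 4.3.3), with 1 mean per group over all 12 libraries (8 residual degrees of freedom) and Benjamini-Hochberg adjustment over 12079 genes; a gene was called at an adjusted p under 0.05. Values after ± are SE for log2 fold changes and SD over 3 libraries for CPM. SE was obtained as the size of the log2 fold change over the root of F. Nothing in the labels says that replicates are separate cultures; p-values thus cover only library-to-library spread, possibly technical. Etv4, the 44 members and up to 6 called genes per further list and comparison, those with the smallest adjusted p, could be named; values in every library are given for members called with a log2 fold change of at least 0.5 in size and for Atf4, Ddit3, Xbp1, Atf6, Ern1, Eif2ak3 and Hspa5. Canx, Mthfd2, Ppp1r15a and Vldlr were given more room after their values were seen. Exon lengths and positions came from GENCODE gene models of GRCm38 (mm10), in which 30416 symbols matched 1 model; Ddit3 matched several and has no length. Alternatives were other scalings and filters, DESeq2 1.42.0, limma-voom (limma 3.58.1), a replicate block, the compared libraries alone, a correction for exon length and GC content (a spline with 3 degrees of freedom per library) and leaving out libraries. Floors cover counting error only.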

Additional observations from a re-analysis of the deposited data

How the results depend on the processing

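The counts and medians of both branches kept their direction and stayed within 1.5 times of the reported count, or within the spread between libraries for a median, in 459 recomputed values and not in 65; those follow, and the cause of each was not tested unless fewer libraries or genes give it. Same-numbered libraries were not treated as pairs. Their deviations correlated between -0.087 and 0.078 over 12 pairs, and those of differently numbered libraries between -0.102 and 0.146. Deviations from a mean of 3 libraries cannot settle whether libraries were paired. With the replicate number as a block (replicate block), 1 instead of 0 ER chaperone members was called for FGF in Etv4_KO cells, and the counts for the knockout were 10 and 1 (ATF4 branch) and 9 and 2 (ER chaperone branch) without FGF.

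For the knockout without FGF, the lower calls of the ATF4 branch numbered 3 without a filter and 3 after the length and GC correction, where the branch median was 0.191; the lower calls of the ER chaperone branch numbered 1 in the compared libraries alone. Xbp1 changed sign at -0.011 under upper-quartile scaling, -0.0516 after the length and GC correction and -0.00831 in the compared libraries alone. With FGF, upper-quartile scaling gave medians of 0.25 and 0.273. For FGF in control cells, DESeq2, the length and GC correction and the compared libraries alone each called 1 ATF4 branch member, and the correction gave an ER chaperone median of -0.0176. For FGF in Etv4_KO cells, DESeq2 called 7 and 4, the correction 6 and 5, and the compared libraries alone 0 ATF4 branch members. The interaction median of the ATF4 branch was 0.105 after the correction.

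Leaving out each library in turn, or both Etv4_KO replicate 2 and control with FGF replicate 2, gave these ranges. The share over all genes is not given for each of these fits, so the ranges do not set the branches apart from other genes. Without FGF, ATF4 branch members called lower, Vldlr counted where tested, ran from 1 to 3 and the median from 0.206 to 0.31, and ER chaperone members called lower from 1 to 3 and the median from 0.119 to 0.173. Without FGF Xbp1 ran from -0.0958 to 0.0767, Eif2ak3 from -0.0779 to 0.143 and Atf6 from -0.189 to 0.0212. With FGF, ATF4 branch members called higher ran from 9 to 17 and lower from 1 to 3, and ER chaperone members called higher from 11 to 17 and lower from 0 to 1. For FGF in control cells calls ran from 0 to 2 and 0 to 1, and medians from 0.00125 to 0.0691 and -0.0176 to 0.0359. For FGF in Etv4_KO cells calls ran from 0 to 9 and 0 to 14, and medians from 0.0367 to 0.152 and 0.156 to 0.211. The 9 and 14 came from the fit without both libraries. Without Etv4_KO replicate 2 alone, calls over all genes went from 1.47% to 4.78% higher and from 0.944% to 2.98% lower. For the interaction calls ran from 0 to 4 and 0 to 3, and medians from -0.059 to 0.0967 and 0.13 to 0.206. Of the values for single members, 627 kept direction and side of the threshold, 17 lost the call, 6 gained it and 10 changed sign.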

Other observations

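The heat shock proteins of the cytosol, chaperones outside the ER, were taken as a separate list of 14 tested genes. In Etv4_KO without FGF 6 rose and 2 fell, and with FGF 4 rose and 2 fell. Without Etv4_KO replicate 2 these counts were 7 and 2, then 5 and 4. Over all genes 22.5% rose and 23.3% fell without FGF, and 18.0% and 22.2% with FGF. Without Etv4_KO replicate 2 these shares were 26.3% and 28.2%, then 28.1% and 30.5%. Hsph1, a nucleotide exchange factor of the HSP70 system, rose without FGF to 443 ± 15.2 CPM (SD, n = 3; log2 fold change 1.15 ± 0.06 SE, edgeR adjusted p = 1.01e-08). Under FGF it was at 228 ± 1.08 CPM in control and 451 ± 4.04 CPM in Etv4_KO (0.99 ± 0.06, adjusted p = 3.87e-08). Hspa8, the constitutive HSP70, rose by 0.57 ± 0.10 and 0.33 ± 0.10, and Hsp90aa1 by 0.38 ± 0.07 and 0.26 ± 0.06. Hspa4, of the same exchange factor family as Hsph1, fell in both media (-0.27 and -0.41). Hspb1, a small heat shock protein, had 40 and 52 counts in the control groups and none in Etv4_KO, at least 13.4-fold and 17.2-fold lower at 3 counts over the group. It passed the filter only through the control libraries and so had to differ where it was tested. It is 1 of the 2 genes of this list called lower in each medium.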
